A study of Mus musculus with 2 samples.

Results

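The BCL2 family was examined through 10 genes in regulatory T cells (Treg cells) of the mouse colon. The genes are Bcl2, Bcl2l1, Mcl1, Bcl2a1b, Bcl2l11, Bax, Bak1, Bid, Bbc3 and Pmaip1. They were chosen by name from the 55246 loci of the deposited table, all 10 were found once, and all 10 had the 10 reads over both libraries that a test required. RNA sequencing was done on Treg cells of the colon lamina propria, the connective tissue under the gut lining, from female mice. There was 1 library from wild-type (WT) mice and 1 from mice labelled Exon2KO, which the series title calls Foxp3∆2, a Foxp3 gene without exon 2. Foxp3 is the transcription factor that defines Treg cells. Strain, age, the sort, and whether a library pools mice are not given in the sources used here. The comparison asks how the Treg transcriptome differs when Foxp3 lacks this exon.

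Proteins of this family decide whether the mitochondrial outer membrane is breached, the step that commits a cell to intrinsic apoptosis. BCL2, BCL-XL (Bcl2l1), MCL1 and A1 (Bcl2a1 genes) hold the pore-forming effectors BAX and BAK in check, and the BH3-only proteins BIM (Bcl2l11), BID, PUMA (Bbc3) and NOXA (Pmaip1) release or activate them. Treg cells are known to need MCL1 to survive, and BIM is known to limit their number.

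Neither genotype had a replicate, so the difference between libraries has no replicate check, and differences of genotype cannot be told apart from any other difference between these libraries. The WT library held 16281133 reads and the Exon2KO library 15412425. Levels between libraries are given as CPM, reads relative to the TMM-scaled library size. A gene was called when an exact binomial test of its reads had a Benjamini-Hochberg adjusted p below 0.05 over 17363 genes and its ratio was at least 2-fold. That test compares the reads of these libraries, not the genotypes. Every log2 ratio sets Exon2KO over WT, and brackets hold its 95% counting interval. No molecular identifiers were used, so reads are not independent molecules and the intervals cover counting error only.

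Foxp3 reads numbered 6991 in WT and 20946 in Exon2KO, counted over the whole gene, which does not test the deletion. The 10 T and Treg cell markers summed to 11240 CPM in WT and 12980 in Exon2KO, with 1, Foxp3, called higher and 2 called lower. Ctla4 alone, which was not called, went from 5056 to 8270 CPM, and the other 9 summed to 6184 CPM in WT and 4710 in Exon2KO, so the direction of the sum turns without it. The genes called lower were Ikzf2, which encodes Helios, with 8476 and 440 reads, and Tnfrsf18, with 34363 and 11626. Of the T cell receptor complex genes, none of which was called, Cd3e had 5154 and 5262 reads, Cd3d 7093 and 6056, Cd3g 16671 and 15187, and Trac 10741 and 8049. Immunoglobulin genes of plasma cells were present in both libraries, and the 11 B and plasma cell markers summed to 62780 CPM in WT and 53360 in Exon2KO, most of it Igkc and Igha, with 3 called lower and 1 higher. The 12 epithelial markers summed to 96.5 CPM in WT, where Fabp2 had 0 reads, and to 488 in Exon2KO, with 9 called higher and 0 lower. In that list Epcam, at 49.8 and 38.1 CPM, and Muc2, with 41 and 21 reads, went the other way without a call. The 8 CD8 and natural killer markers went from 426 to 73.5 CPM, with 3 called lower and 1 higher. Gzma alone went from 328 to 10.3 CPM. In that list Ncr1 had 0 reads in WT and Eomes 0 in Exon2KO. The 6 gamma-delta T cell markers went from 10.4 to 71.7 CPM, with 4 called higher and 1, Trdv4 (15 and 1 reads), lower. Most of that sum was Tcrg-C1, at 7.84 and 64.7 CPM, while Trdc had 14 and 13 reads. The 9 stromal and endothelial markers went from 76.1 to 70.4 CPM, with 2 called higher, Cdh5 (0 and 15 reads) and Lum (6 and 20), and 0 lower. Without Pecam1, at 58.4 and 52.2 CPM, the other 8 summed to 17.6 and 18.2 CPM. The part of other cells in the values below was not tested, except where a value is given.

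Of the 10 members, 3 were called lower in the Exon2KO library (Bcl2l1, Bcl2a1b and Bid) and 0 were called higher. Over all genes tested, 6.61% were called lower and 7.20% higher. By class, 2 of the 4 anti-apoptotic members, 0 of the 2 effectors and 1 of the 4 BH3-only members were called lower. All 4 anti-apoptotic and all 4 BH3-only members had a log2 ratio below 0, while Bax and Bak1 lay above 0. The median log2 ratio of the members was -0.56, against 0.0035 for all genes tested, of which 49.7% lay below 0. With a fold threshold of 1.5 instead, Bcl2 and Bcl2l11 joined the members called lower, 5 in all against 10.6% of all genes, and 0 members were called higher against 10.5%. Without any fold threshold, 7 members had an adjusted p below 0.05 and a lower level (21.9% of all genes) and 1, Bax, a higher level (19.4%). The counting interval held 0 for Bak1 and Bbc3. In bulk RNA, fewer cells that express a gene and less RNA per cell cannot be told apart.

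**Figure D1:**
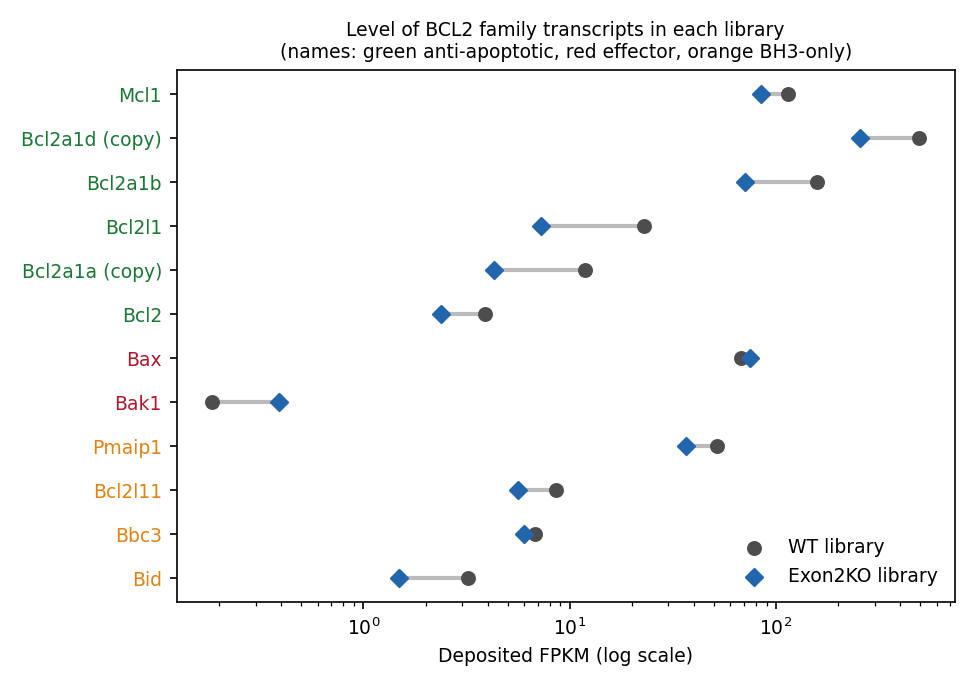
Deposited FPKM (reads per length and depth, log axis) of the 10 members and of the A1 copies Bcl2a1a and Bcl2a1d in the WT library (grey circles) and the Exon2KO library (blue diamonds), 1 library each. Bcl2a1d, Bcl2a1b and Mcl1 have the highest WT levels, at 495, 157 and 114 FPKM, and the Exon2KO point lies left of the WT point for every gene but Bax and Bak1. FPKM carries no TMM scaling.

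Among the anti-apoptotic members the highest levels per length belonged to Bcl2a1b and Mcl1. In FPKM, which scales reads to gene length and so allows genes to be compared, Bcl2a1b was at 157 in WT and 70.8 in Exon2KO, and Mcl1 at 114 and 84.7. Bcl2l1 was at 23.0 and 7.26 and Bcl2 at 3.86 and 2.37. The order of these 4 genes in WT therefore ran from Bcl2a1b through Mcl1 and Bcl2l1 to Bcl2, and in Exon2KO Mcl1 stood above Bcl2a1b. That change of order concerns 1 A1 copy only, since Bcl2a1d, at 495 FPKM in WT and 257 in Exon2KO, stood above Mcl1 in both libraries. Bcl2a1b exceeded the FPKM of 97.5% of the genes tested in WT, and Bcl2, the founding member of the family, that of 58.9%.

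Bcl2l1 had the lowest log2 ratio of the 10 members. This gene (ENSMUSG00000007659, chromosome 2, 152780668 to 152831728, minus strand, GRCm38) encodes BCL-XL, and by alternative splicing a shorter form with the opposite effect, which a count per gene cannot separate. It had 1664 reads in WT (106 CPM) and 530 in Exon2KO (33.1 CPM). The log2 ratio was -1.67 (-1.82 to -1.54), so the gene was 3.19-fold lower and was called. Of all genes tested, 3.47% had a log2 ratio this low or lower. No other annotated gene overlaps Bcl2l1. The authors' deposited table gives it a log2 fold change of -1.68 and an adjusted p of 0.00368, the smallest of the 10 members and the only one below 0.05. Under edgeR's exact test its adjusted p was 0.00284 with an assumed relative spread between samples (BCV) of 0.2 and 0.828 with 0.4, so the call depends on a spread that these data cannot measure.

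Bcl2a1b (ENSMUSG00000089929, chromosome 9, 89199209 to 89207827, plus strand) is 1 of several mouse genes for A1, an NF-kB-inducible survival protein of lymphocytes and myeloid cells. Its reads numbered 2024 in WT (129 CPM) and 920 in Exon2KO (57.5 CPM), a log2 ratio of -1.16 (-1.28 to -1.05), and was called lower at 2.24-fold. With an assumed BCV of 0.2 its adjusted p by edgeR's exact test was 0.0713, and the call was lost. The other copies were read beside it. Bcl2a1d (chromosome 9, 88723285 to 88731914, minus strand) had 6737 and 3522 reads, at -0.96 (-1.02 to -0.90), a 1.95-fold difference just short of the threshold. Bcl2a1a (chromosome 9, 88956900 to 88962419, plus strand) had 153 and 56 reads, at -1.44 (-1.95 to -1.03), and was called lower, with an adjusted p of 0.0424 in the authors' deposited table. Its adjusted p by edgeR's exact test was 0.0328 with an assumed BCV of 0.2, where the call held, and 1 with 0.4. All 3 copies were thus lower in Exon2KO. Bcl2a1c had 0 reads in WT and 2 in Exon2KO and was not tested.

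The division of reads among these copies is uncertain because their sequences are nearly the same. Their coding sequences have 516 bases each, and the copies are not all alike at 12 of these. Identity was 98.8% between Bcl2a1b and Bcl2a1d, 97.9% between Bcl2a1a and Bcl2a1b, and 98.6% between Bcl2a1a and Bcl2a1d. The first 60 coding bases, chosen because they hold the most differences of any stretch of that length (6 of the 12), show what a read has to cover to be assigned to a copy. Capitals mark the positions at which the 3 copies are not all alike, and the sequences run 5′ to 3′ along the coding strand, from GENCODE M21 transcripts on GRCm38. They lie at chr9:88957051-88957110 (Bcl2a1a, plus strand), chr9:89199360-89199419 (Bcl2a1b, plus strand) and chr9:88731660-88731719 (Bcl2a1d, minus strand), each inside 1 exon.
Bcl2a1a: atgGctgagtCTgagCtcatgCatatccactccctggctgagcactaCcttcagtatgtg
Bcl2a1b: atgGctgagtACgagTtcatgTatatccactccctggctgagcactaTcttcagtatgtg
Bcl2a1d: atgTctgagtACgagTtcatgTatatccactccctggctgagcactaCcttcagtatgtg
Of all stretches of 100 bases in the Bcl2a1b transcript, 31.1% occur unchanged in the transcript of another of these copies, and for Bcl2a1d the share was 54.7%. Read length, and what was done with reads that match several copies, are not given in the sources used here. In addition, 49.1% of the exonic bases of Bcl2a1b belong also to Gm29094, a gene on the same strand with 21 and 11 reads. Summing the copies removes the question of division among them. Their sum was 8914 reads in WT (568 CPM) and 4498 in Exon2KO (281 CPM), a log2 ratio of -1.01 (-1.07 to -0.96). Bcl2a1d held 75.6% of these reads in WT and 78.3% in Exon2KO.

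The stretches before the copies' start sites were compared as well, since the copies were lower together. The 186 bases before the annotated start of Bcl2a1a and of Bcl2a1b differ at 1 position, and those of Bcl2a1b and Bcl2a1d, whose starts are offset, align with 135 identical bases, 1 different base and 100 positions without a partner, at the ends and in an internal gap. Both are printed for the member Bcl2a1b and for Bcl2a1d, the copy with the most reads, from the RefSeq promoter table (GRCm38.p6), 5′ to 3′ along the gene's strand. They lie at chr9:89199023-89199208 (plus strand) and chr9:88731915-88732100 (minus strand). Capitals mark a match to TGANTCA, a loose form of the AP-1 pattern that allows any base in the middle, here A.
Bcl2a1b: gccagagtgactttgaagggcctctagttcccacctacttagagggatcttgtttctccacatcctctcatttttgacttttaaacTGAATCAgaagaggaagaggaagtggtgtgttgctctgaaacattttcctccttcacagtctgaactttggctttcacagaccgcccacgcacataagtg
Bcl2a1d: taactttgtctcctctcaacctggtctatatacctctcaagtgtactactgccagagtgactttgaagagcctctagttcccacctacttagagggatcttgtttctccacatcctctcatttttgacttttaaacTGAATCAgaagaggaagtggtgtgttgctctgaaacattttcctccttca
The search covered both strands of 300-base windows, from 250 bases before to 50 after each RefSeq start. It took in 14 windows of 9 members and 1 window each of Bcl2a1a and Bcl2a1d. Pmaip1 had no window in the table. TGANTCA was found in the windows of the 3 A1 copies and in no other of the 16, against 7.81% of all 32851 windows. The A1 windows hold nearly the same sequence, so their 3 matches are not separate occurrences and cannot be weighed against that share. The forkhead motif TGTTTAC was found in windows of Bcl2l11 and Bbc3 (3.65% of all windows), and the STAT motif TTCNNNGAA in none of the 16 (8.30%). The NF-kB consensus was found in windows of Bcl2l1 and Bbc3 (8.46%). No matches of different motifs overlapped. A match says only that these letters are present.

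A1 is also abundant in neutrophils and macrophages, so the 11 myeloid markers were read beside it. They summed to 52.1 CPM in WT and 54.7 in Exon2KO, with 1 called lower, Kit, at 149 and 53 reads. Without Lyz2, at 20.2 and 25.3 CPM, the other 10 summed to 31.9 and 29.4 CPM. The neutrophil genes S100a8 and S100a9 had 0 reads in WT and 5 and 4 in Exon2KO, and the mast cell gene Cpa3 had 1 and 0. The part of myeloid cells in the A1 values was not tested.

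Mcl1 and Bcl2 were lower by less than the threshold. Mcl1 (ENSMUSG00000038612, chromosome 3, 95658788 to 95663176, plus strand) had 6147 reads in WT (392 CPM) and 4608 in Exon2KO (288 CPM), at -0.44 (-0.50 to -0.39). MCL1 is also known to be needed by plasma cells, whose markers are given above, and their part in its level was not tested. Bcl2 (ENSMUSG00000057329, chromosome 1, 106538178 to 106714274, minus strand) had 558 reads (35.6 CPM) and 345 reads (21.6 CPM), at -0.72 (-0.92 to -0.52), a 1.64-fold difference. An antisense gene, D630008O14Rik, shares 6.09% of the exonic bases of Bcl2 and had 14 and 9 reads.

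The effectors showed no call. Bax (ENSMUSG00000003873, chromosome 7, 45461697 to 45466898, minus strand) had 1687 reads in WT (107 CPM) and 1878 in Exon2KO (117 CPM), at 0.13 (0.03 to 0.22). Its FPKM was 67.9 and 74.9. Of its exonic bases, 12.2% belong also to Gm45808, a protein-coding gene on the same strand with 0 reads in both libraries. Bak1 (ENSMUSG00000057789, chromosome 17) was near the floor, with 7 and 15 reads, or 0.184 and 0.392 FPKM. The log2 ratio of Bak1 was 0.90 (-0.31 to 2.61), so this depth could not show a difference. Of its exonic bases, 18.2% are shared with a gene named Ggnbp1 on the opposite strand, which had 14 and 7 reads, and 7.35% with another gene annotated under that name and strand, which had 0 reads in both. Transcripts of Bax were therefore far more abundant than those of Bak1 in both libraries. Bok, the third gene of this type, had 4 and 5 reads and was not tested.

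Among the BH3-only members, Pmaip1, whose protein NOXA binds MCL1 and A1, had the highest level per length. It had 51.5 FPKM in WT and 36.8 in Exon2KO. Pmaip1 (ENSMUSG00000024521, chromosome 18) had 2149 and 1549 reads, at -0.50 (-0.59 to -0.40). Bcl2l11 (ENSMUSG00000027381, chromosome 2, 128126038 to 128162547, plus strand) encodes BIM, a BH3-only protein that binds all the anti-apoptotic members. It had 1085 reads in WT (69.1 CPM) and 715 in Exon2KO (44.7 CPM). Its log2 ratio was -0.63 (-0.77 to -0.49), a 1.54-fold difference. Both genes were lower in Exon2KO by less than the threshold. Bbc3, which encodes the p53-induced protein PUMA, had 228 and 203 reads, at -0.19 (-0.47 to 0.08), again no difference that this depth could show.

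Bid (ENSMUSG00000004446, chromosome 6, 120891930 to 120916853, minus strand) links death receptors to mitochondria once caspase-8 has cut its product. It had 180 reads in WT (11.5 CPM) and 84 in Exon2KO (5.25 CPM), at -1.11 (-1.52 to -0.74), and was called lower at 2.16-fold. Its FPKM of 3.21 and 1.49 was the lowest of the BH3-only members. Of its exonic bases, 17.7% overlap Bcl2l13 on the opposite strand, which had 341 and 387 reads. The use of strand is not given in the sources used here, so reads of that stretch cannot be assigned to a gene. The call was lost with an assumed BCV of 0.2 in edgeR's exact test (adjusted p = 0.141), and when libraries were scaled to the reads of Cd3d, Cd3e and Cd3g (log2 ratio -0.96), an alternative chosen after the data were seen.

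**Figure D2:**
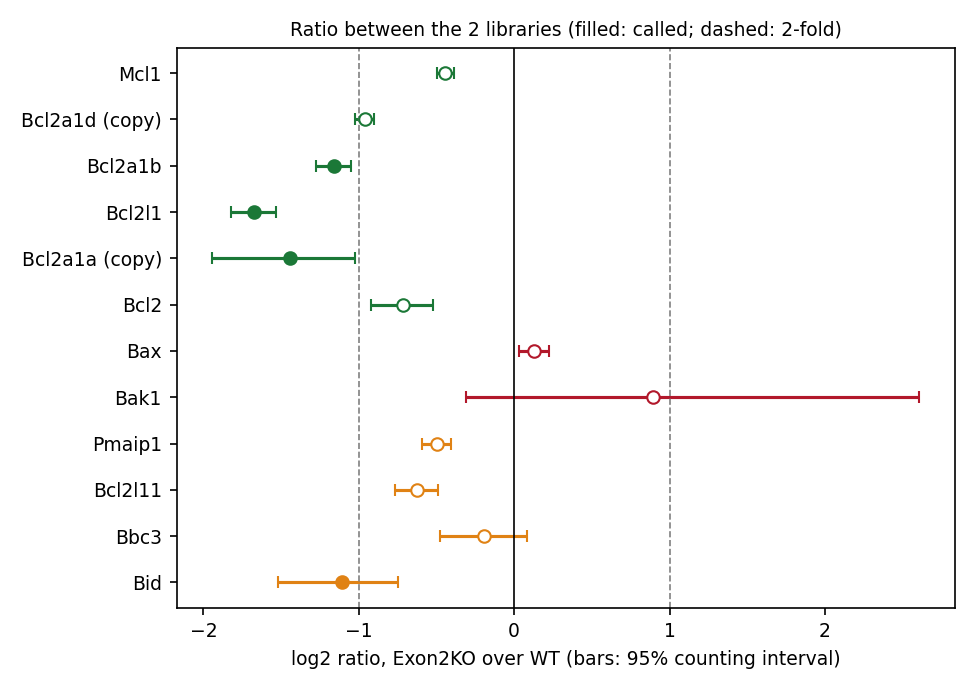
Log2 ratio of Exon2KO over WT for the 10 members and 2 further A1 copies, with bars for the 95% counting interval, filled points for called genes and dashed lines at 2-fold. The anti-apoptotic genes (green) lie from -1.67 to -0.44 and the BH3-only genes (orange) from -1.11 to -0.19, while Bax is at 0.13 and the wide interval of Bak1 holds 0.

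The makeup of the family within a library does not depend on scaling between libraries. In WT, the 4 anti-apoptotic members made up 68.3% of the summed FPKM of the 10 members, the effectors 15.6% and the BH3-only members 16.1%. In Exon2KO the shares were 56.9%, 25.9% and 17.2%. Bax alone went from 15.6% to 25.8% of the sum, Bcl2a1b from 36.0% to 24.4%, and Mcl1 from 26.1% to 29.2%. A share says nothing of a level between libraries, where Bax differed 1.09-fold in CPM. With Bcl2a1a and Bcl2a1d added, the anti-apoptotic share was 85.3% in WT and 77.3% in Exon2KO, and the effector share was 7.22% and 13.7%, so the shares depend on how many A1 copies are counted while their direction does not.

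**Figure D3:**
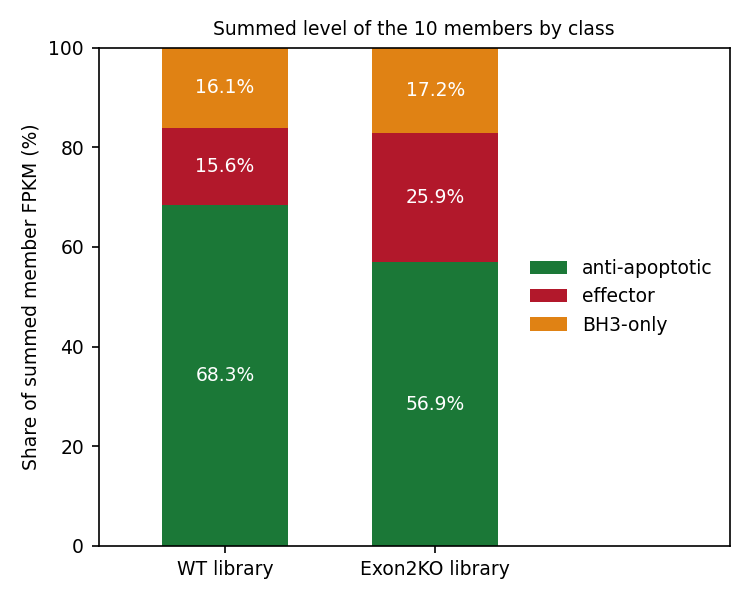
Share of the summed FPKM of the 10 members (percent, stacked to 100) held by the anti-apoptotic members, the effectors and the BH3-only members in each of the 2 libraries. The effector share is 15.6% in WT and 25.9% in Exon2KO, and the BH3-only share is 16.1% and 17.2%.

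Quotients of single genes were also formed within each library. The FPKM of Bcl2l1 was 0.339 of that of Bax in WT and 0.0970 in Exon2KO. That of Mcl1 was 1.68 and 1.13 times Bax. Against Bcl2l11, whose product binds them, the anti-apoptotic genes split. Bcl2 stood at 0.451 and 0.423 of Bcl2l11, so this quotient was nearly the same in both libraries, and Mcl1 stood at 13.3 and 15.1 times Bcl2l11. Bcl2a1b went from 18.3 to 12.6 times Bcl2l11, and Bcl2l1 from 2.69 times Bcl2l11 in WT to 0.483 of that quotient in Exon2KO, where it was still the higher of the pair (7.26 against 5.60 FPKM). Mcl1 and Pmaip1, whose products bind each other, had a quotient of 2.21 in WT and 2.30 in Exon2KO.

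The wider family was read from lists that include the members. Each count below is to be set beside the 6.61% called lower and 7.20% called higher over all genes tested. Of 8 anti-apoptotic genes including the A1 copies, 7 were tested, 3 were called lower and 0 higher, with a median log2 ratio of -0.96. Bcl2l2, which encodes BCL-W, had 12 and 22 reads (-0.23 to 2.00), and Bcl2l10 had 0 reads in both libraries. Of 8 BH3-only genes 7 were tested, 1 (Bid) was called lower and 0 higher, with a median of -0.63. Bad, which encodes a BH3-only protein regulated by phosphorylation, had 305 and 317 reads, at 0.03 (-0.20 to 0.26). Hrk had 0 reads in both libraries, which allows up to 0.191 CPM in WT and 0.188 in Exon2KO (3 reads). Of 6 further related genes 1 was called lower, Bcl2l15, with 26 and 9 reads. The mitophagy receptor Bnip3l was abundant and near even, with 4701 and 5038 reads, at 0.07 (0.02 to 0.13).

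Downstream of the mitochondria, 17 genes of the apoptosome, caspases and inhibitors of apoptosis were tested, with a median log2 ratio of -0.12. Of these, 2 were called lower and 0 higher, against 6.61% lower and 7.20% higher over all genes tested. Apaf1, the scaffold on which caspase-9 is activated, had 912 reads in WT and 326 in Exon2KO, at -1.51 (-1.70 to -1.33). Birc2, which encodes the ubiquitin ligase cIAP1, had 3450 and 1669 reads, at -1.07 (-1.16 to -0.99). This call was lost with total counts and with scaling to Cd3d, Cd3e and Cd3g. Cycs, which encodes the cytochrome c that APAF1 senses, had 4195 and 4272 reads, at 0.00 (-0.06 to 0.06). Birc3 had 6015 and 4574 reads, at -0.42 (-0.48 to -0.37), short of the threshold. The other members of the list lay between a log2 ratio of -0.75 and 0.45.

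In the death receptor pathway 2 of 11 genes were called lower and 0 higher, with a median of -0.12, beside 6.61% lower and 7.20% higher over all genes tested. Fas, the receptor that triggers caspase-8, had 2855 reads in WT and 829 in Exon2KO, or 101 and 28.9 FPKM, at -1.81 (-1.92 to -1.70). Tnfrsf10b, the mouse receptor for TRAIL, had 282 and 142 reads, at -1.01 (-1.32 to -0.72), a value at the edge of the threshold. Its call was lost with DESeq2's size factors, with total counts and with scaling to Cd3d, Cd3e and Cd3g. With an assumed BCV of 0.2, Bcl2a1a, Apaf1 and Fas were still called among the 6 called genes of these lists that are not members, while Birc2, Tnfrsf10b and Bcl2l15 were not, and with 0.4 none of these 6 was. Casp8 itself had 1362 and 1276 reads, at -0.12 (-0.23 to -0.01), and Ripk3 had 1486 and 1614, at 0.09 (-0.01 to 0.20).

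The lists for p53, regulators and cytokine receptors held no called gene, in lists so short that the 6.61% lower and 7.20% higher over all genes tested would give few. Of 10 genes of the p53 pathway, which induces Bbc3, Pmaip1 and Bax, 0 were called and the median log2 ratio was 0.03. Cdkn1a, its best known target, had 9926 reads in WT and 10624 in Exon2KO, at 0.07 (0.03 to 0.11), and Trp53inp1 was at 0.27 (0.19 to 0.34). Of 11 regulators of the family's transcripts or protein stability 0 were called, with a median of 0.03. Among them Foxo1, a forkhead factor known to induce Bcl2l11, had 6902 and 7186 reads, at 0.03 (-0.02 to 0.08), and Atf4 was at 0.05 (0.01 to 0.08). Stat5a, which carries IL-2 receptor signals, had 3883 and 2308 reads, at -0.78 (-0.85 to -0.70), and was the 1 regulator called lower with a fold threshold of 1.5. Of 5 receptor genes for the cytokines that sustain Bcl2 family expression 0 were called, with a median of -0.35. The shared chain Il2rg had 14406 and 9921 reads, at -0.56 (-0.60 to -0.53), and Il2rb had 9501 and 13120, at 0.44 (0.40 to 0.48).

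**Figure D4:**
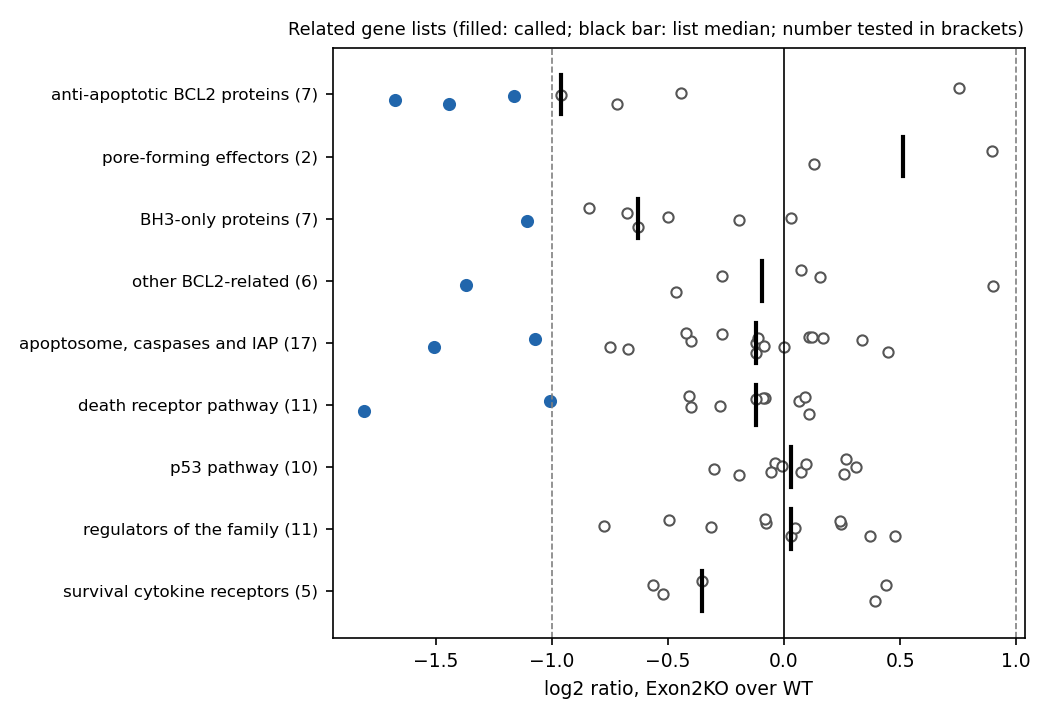
Log2 ratio of Exon2KO over WT (x axis) for the tested genes of 9 lists (rows, number tested in brackets), with filled points for called genes, open points for the rest, black bars for list medians and dashed lines at 2-fold. The median is -0.96 for the anti-apoptotic list and -0.63 for the BH3-only list, and 0.03 for the p53 pathway and for regulators of the family.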

How the data were processed

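Raw counts of reads and FPKM values, both per gene, were deposited by the authors for 1 WT and 1 Exon2KO library, together with a scaled count signal, a log2 fold change and p-values of their own comparison. The submitters' processing notes list HISAT2 2.0.5, StringTie 1.3.3b, featureCounts 1.5.0-p3 and DESeq2 1.16.1 and the build mm10, with no roles stated. Coordinates of 98.3% of the Ensembl genes found in GENCODE M21 (GRCm38) were identical there. The scaled signal was not used, and deposited FPKM served to compare levels between genes and to form shares and quotients within a library. FPKM of the libraries, where printed side by side, carries no TMM scaling, and ratios between libraries come from the counts.

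From the counts, library sizes were scaled with TMM (edgeR 4.0.16, R 4.3.3; factors 0.964 for WT and 1.04 for Exon2KO). Genes with at least 10 reads were compared by a 2-sided exact binomial test (smaller tail doubled, scipy 1.17.1) with Benjamini-Hochberg adjustment and a 2-fold threshold. Log2 ratios used a prior count of 2, and Clopper-Pearson intervals used none. With 1 library per genotype edgeR's quasi-likelihood test could not be fitted. The procedure was also run on simulated reads that held counting error only, which cannot test it against a spread between libraries. Promoter and transcript sequences were aligned with Biopython 1.88.

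The members and lists were chosen with earlier results of these data known. Named genes are all members, the A1 copies, every called gene of the related lists, and the 2 uncalled genes with the most reads in each. Bcl2l2, Bcl2l10, Bcl2l12, Bad, Hrk, Bok, Stat5a and single marker genes were named after their values were seen.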

Additional observations from a re-analysis of the deposited data

How the results depend on the processing

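Over 9 alternatives for each of 10 members, 84 of 90 results kept both direction and call. The 2 assumed BCVs leave the ratio as it is and can change only the call, and under the others no ratio changed direction. Bak1, not called under any of them, passed the 2-fold line with a prior count of 0.5 and with Cd3 scaling (both 1.02). The exceptions were lost calls, with the values -1.16 (Bcl2a1b) and -1.11 (Bid) under an assumed BCV of 0.2, the same 2 and Bcl2l1 (-1.67) under 0.4, and Bid (-0.96) under scaling to Cd3d, Cd3e and Cd3g, which was chosen after the data were seen. Members called lower, 3 as reported, numbered 1 and 0 under these BCVs and 5 with a fold threshold of 1.5, where 10.6% of all genes were called lower. Over all lists, the members included, 9 of 76 tested genes were called lower as reported (11.8%, against 6.61% of all genes), or 6 of 66 (9.09%) without the members. Of the 76, 4 and 0 were called lower under the BCVs and 17 with the threshold of 1.5. There 0 were called higher as reported, against 1 (Bcl2l12) with total counts, with Cd3 scaling and with the threshold of 1.5. These changes follow from the assumed spread, the threshold or the shift of all ratios. The median log2 ratio of the members was -0.41 with Cd3 scaling. Total counts and Cd3 scaling moved the median of all genes by 0.105 and 0.151. These scalings changed the sign of the median of the other related genes (0.0052 and 0.050), and Cd3 scaling that of the apoptosome (0.032) and death receptor (0.032) lists, all near 0.

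With reads in place of FPKM, the anti-apoptotic, effector and BH3-only shares were 66.1%, 10.8% and 23.2% in WT and 59.0%, 17.5% and 23.5% in Exon2KO. With all A1 copies they were 85.3%, 7.22% and 7.43% in WT and 77.3%, 13.7% and 9.05% in Exon2KO. Depth limits Bak1, Bok and Bcl2l2. No paired analysis was possible because each genotype has 1 library, which also leaves no library to omit.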
